A study of Mus musculus with 18 samples.

Results

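In mouse splenocytes, 9 genes were high in every LPPC/mp/CD28 and LPPC/mp library and low in every LPPC/mp/CD152 and Naive library. They were Urah, Lipg, Wfdc17, Pdpn, Saa3, Timp1, Prss46, Myo1e and Slc15a3. They were chosen by these measured levels out of 47729 reference genes, so the difference between the high and the low groups is described here without a test. All 9 passed the filter of a mean of at least 0.5 FPKM (fragment counts divided by gene length and by library size), which left 11436 protein-coding genes, but 6 of them (Urah, Lipg, Pdpn, Saa3, Timp1 and Prss46) averaged under 0.5 FPKM in the low libraries and passed only through the high ones.

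RNA of splenocytes was sequenced in 18 libraries from spleens of female C57BL/6J mice, labelled 4 to 6 weeks of age. LPPC is a liposome of lipids, polyethylene glycol and polyethyleneimine to which proteins bind, and mp stands for the membrane proteins, taken from dendritic cells loaded with antigen. All treated mice were first immunized and boosted with LPPC/mp. The 6 LPPC/mp/CD28 libraries followed 1 or 2 further doses of LPPC/mp carrying anti-CD28, an antibody to the costimulatory receptor of T cells, and the 3 LPPC/mp libraries followed the immunization and boost alone. The 6 LPPC/mp/CD152 libraries followed 1 or 2 further doses carrying anti-CD152, an antibody to the inhibitory receptor CTLA4, and the 3 Naive libraries came from untreated mice. The labels do not tell 1 dose from 2. No group received further LPPC/mp without an antibody, so the antibody, the added dose and the later week cannot be told apart in a comparison with LPPC/mp. The protocol fields of the labels describe melanoma tumours rather than splenocytes. No source states that the libraries of a group came from separate animals, so p-values measure the spread between these libraries, which may be technical.

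The 9 low libraries were of 2 kinds that did not follow the groups. Naive 1 and 2 and LPPC/mp/CD152 2 and 5 held at most 0.00204 FPKM of 4 Y-linked genes in sum and 48.1 to 59.9 FPKM of Xist, and their macrophage and monocyte markers summed to 678 to 809 FPKM. LPPC/mp/CD152 1, 3, 4 and 6 and Naive 3 held 59.0 to 67.3 FPKM of the Y-linked genes and 0.286 to 2.69 FPKM of Xist, and the same markers summed to 3309 to 3619 FPKM. The 9 high libraries held 50.7 to 57.2 FPKM of the Y-linked genes, 4.84 to 7.20 FPKM of Xist and 2105 to 2239 FPKM of the macrophage markers. Since every label states female, 14 of 18 libraries went against the labelled sex. T cell markers, which define much of a spleen, summed to 65.3 to 133 FPKM in the high libraries, 441 to 704 FPKM in the 4 low libraries without Y-linked transcripts and 8.05 to 75.5 FPKM in the other 5. The ratio of read coverage to FPKM put 5.21 to 7.92 gigabases of aligned sequence behind each library. Fewer cells of a type and less RNA per cell cannot be told apart in such bulk libraries.

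The 9 genes belong to no single pathway. Saa3 (serum amyloid A), Wfdc17 (a whey acidic protein domain protein) and Timp1 (an inhibitor of metalloproteinases) encode secreted proteins that macrophages are known to make under inflammatory stimulation. Lipg encodes endothelial lipase, a secreted phospholipase that acts on high-density lipoprotein, and Prss46 a serine protease of a gene cluster known mainly from testis. Pdpn encodes podoplanin, a surface glycoprotein of lymph node stroma and inflammatory macrophages that binds the platelet receptor Clec1b. Slc15a3 encodes a lysosomal transporter of histidine and small peptides. Urah encodes a hydrolase that acts in the breakdown of urate, and Myo1e a class I myosin that links membrane to actin.

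Among the secreted proteins, Wfdc17 was the most abundant of the 9 genes in the high groups. It lies on chr11:83703991-83706268 of the mm10 build, on the plus strand. Its levels ran from 172 to 194 FPKM (median 184) in LPPC/mp/CD28 libraries and were 186, 169 and 178 FPKM in LPPC/mp libraries, against 4.21 to 5.48 FPKM (median 4.73) in LPPC/mp/CD152 libraries and 5.63, 4.96 and 3.36 FPKM in Naive libraries. The gene was thus never silent in the low libraries, and the mean of the 9 high libraries was 38.6 times that of the 9 low ones. Wfdc17 stood at rank 210 of the 11436 genes tested by its mean FPKM in LPPC/mp/CD28 and at rank 8166 in Naive.

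Saa3 (chr7:46711998-46715676, minus strand) was listed above 0 in every library, but at low values in the low groups. It reached 50.3 to 58.8 FPKM (median 53.0) in LPPC/mp/CD28 libraries and 54.3, 48.3 and 51.9 FPKM in LPPC/mp libraries, against 0.268 to 0.733 FPKM (median 0.376) in LPPC/mp/CD152 libraries and 0.759, 0.237 and 0.277 FPKM in Naive libraries. The ratio of the 2 means over 9 libraries each was 120. The highest of the low libraries was Naive 1, and the lowest of the high libraries was LPPC/mp 2.

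Timp1 (chrX:20870166-20874735, plus strand) stayed below 10 FPKM in every library. It measured 7.32 to 8.69 FPKM (median 7.80) in LPPC/mp/CD28 libraries and 9.07, 7.94 and 7.09 FPKM in LPPC/mp libraries, against 0 to 0.331 FPKM (median 0.110) in LPPC/mp/CD152 libraries and 0.286, 0.0473 and 0.0810 FPKM in Naive libraries. LPPC/mp 1 held the highest and LPPC/mp 3 the lowest of its 9 high values. Timp1 lies within Syn1, a neuronal gene of the opposite strand listed at 0.713 to 1.10 FPKM in the high and 0.111 to 0.272 FPKM in the low libraries. The strand setting of the counting is not given in the sources used here. How reads of the stretch that the 2 genes share were assigned is thus not known.

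Of the secreted enzymes, Lipg (chr18:74939322-74961263, minus strand) measured 11.5 to 13.3 FPKM (median 12.6) in LPPC/mp/CD28 libraries and 12.6, 11.4 and 12.6 FPKM in LPPC/mp libraries. It was at 0 to 0.0679 FPKM (median 0.0188) in LPPC/mp/CD152 libraries and at 0.0218, 0.0666 and 0.0401 FPKM in Naive libraries. Lipg is named for endothelial cells. The sum of 10 endothelial markers was 3.40 to 7.85 FPKM in the high libraries and 32.9 to 43.6 FPKM in the 4 low libraries without Y-linked transcripts, where Lipg was at most 0.0679 FPKM, and the part of these cells in the level of Lipg was not tested.

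Prss46 (chr9:110844506-110856522, plus strand) was the least abundant of the 9. It reached 2.43 to 2.995 FPKM (median 2.58) in LPPC/mp/CD28 libraries and 2.45, 2.69 and 2.31 FPKM in LPPC/mp libraries, against 0 to 0.0698 FPKM (median 0.0517) in LPPC/mp/CD152 libraries and 0, 0 and 0.0298 FPKM in Naive libraries. It was listed at 0 in 4 low libraries, which were the 4 without Y-linked transcripts.

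Pdpn (chr4:143267431-143299564, minus strand) measured 7.31 to 8.61 FPKM (median 8.16) in LPPC/mp/CD28 libraries and 8.37, 7.42 and 7.72 FPKM in LPPC/mp libraries, against 0 to 0.0776 FPKM (median 0.0540) in LPPC/mp/CD152 libraries and 0.00205, 0 and 0.0833 FPKM in Naive libraries. The 11 other markers of splenic stroma and reticular cells, such as Ccl21a and Cxcl13, summed to 0.621 to 36.2 FPKM in LPPC/mp/CD28 libraries and 44.0 to 72.8 FPKM in LPPC/mp libraries, against 0.337 to 7.82 FPKM in LPPC/mp/CD152 and 0.510 to 5.39 FPKM in Naive libraries. LPPC/mp/CD28 1 and 4 had sums of 0.621 and 0.639 FPKM, inside the range of the low libraries, with Pdpn at 7.84 and 8.33 FPKM. The part of stromal cells in the level of Pdpn was not tested.

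Slc15a3 (chr19:10839727-10859362, plus strand) measured 30.2 to 40.8 FPKM (median 37.2) in LPPC/mp/CD28 libraries and 37.2, 37.2 and 37.2 FPKM in LPPC/mp libraries, against 4.40 to 5.54 FPKM (median 5.02) in LPPC/mp/CD152 libraries and 7.18, 5.76 and 3.97 FPKM in Naive libraries. The mean of the high libraries was 6.997 times that of the low ones. The one value that stood lower, LPPC/mp/CD28 3, was 37.5 FPKM when read from the locus that the authors' tables assemble from the same reads, against 36.2 to 40.8 FPKM over all 9 high libraries. The gene overlaps Tmem132a of the opposite strand, listed at 1.94 to 2.74 FPKM in the high and 0.270 to 1.15 FPKM in the low libraries.

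The 2 intracellular members stood at opposite ends. Urah (chr7:140835018-140837971, plus strand) measured 23.0 to 26.7 FPKM (median 23.9) in LPPC/mp/CD28 libraries and 24.8, 25.4 and 26.7 FPKM in LPPC/mp libraries. It was listed at 0 in 8 of the 9 low libraries and at 0.0175 FPKM in LPPC/mp/CD152 6, a mean read depth of 0.118 over the gene against 79.7 or more in the high libraries. The 10 genes that every cell uses, such as actin, were at 0 in no library, with 2.56 FPKM as the lowest value. An antisense gene over Urah, C330022C24Rik, was listed at 0.0726 to 0.478 FPKM in the high and 0 to 0.0597 FPKM in the low libraries.

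Myo1e (chr9:70207350-70400067, plus strand) was expressed in all libraries. It reached 93.3 to 104 FPKM (median 99.2) in LPPC/mp/CD28 libraries and 98.4, 91.4 and 98.1 FPKM in LPPC/mp libraries, against 23.7 to 28.02 FPKM (median 27.1) in LPPC/mp/CD152 libraries and 24.6, 24.5 and 29.9 FPKM in Naive libraries. The ratio of the means was 3.71, the smallest of the 4 members that were above 0 in every low library. Myo1e was thus expressed at 2 levels and not absent from the low groups.

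**Figure D1:**
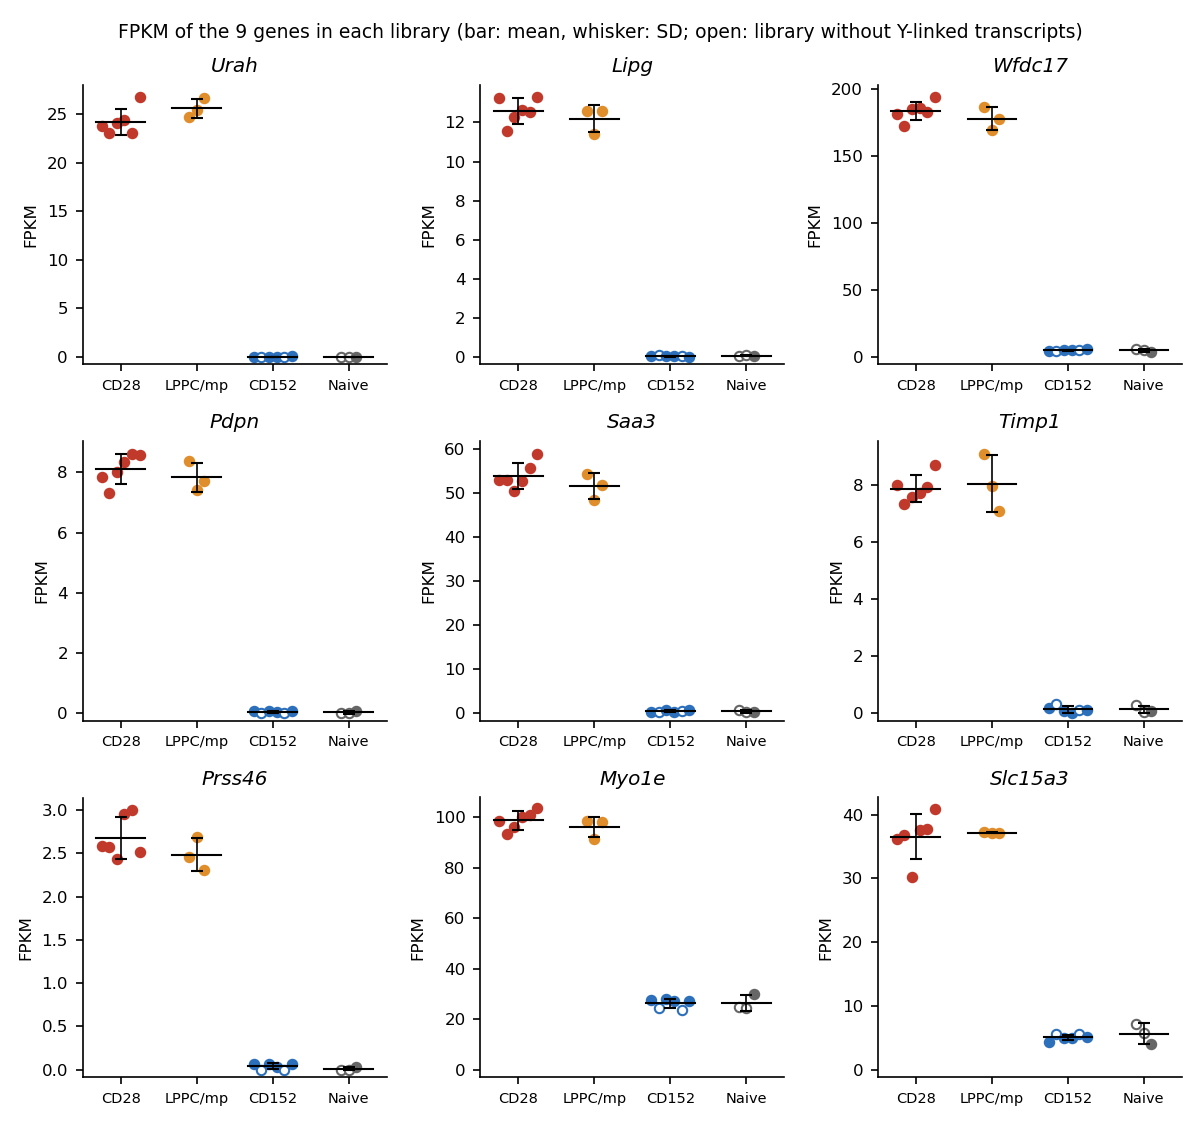
FPKM of each of the 9 genes (vertical axes) in the 6 LPPC/mp/CD28, 3 LPPC/mp, 6 LPPC/mp/CD152 and 3 Naive libraries, with each point a library, the bar the mean and the whisker the SD. Open points are the 4 libraries without Y-linked transcripts, and in every panel the 9 high libraries lie apart from the 9 low ones.

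The tables also list loci assembled from the same reads, each with the start that the assembly placed. An assembled locus of Urah was present in all 9 high libraries and in none of the 9 low ones, and in 7 of the 9 it began at position 140834888, 130 bases before the annotated start. Prss46 began at position 110849538 in 7 of the 9, which is the start of the second of its 2 annotated transcripts, 5032 bases inside the gene. Lipg, Wfdc17, Pdpn and Timp1 began at their annotated start in all 9, Myo1e in 8 of 9, Saa3 in 6 of 9 and Slc15a3 in 3 of 9. Read from the assembled loci instead of the reference genes, all 9 genes again lay higher in every high library than in every low one.

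The sequence before the start was available from RefSeq (GRCm38.p6) for 7 of the 9 genes, not for Lipg and Slc15a3, and is shown because genes that move together are often read for shared promoter motifs. The 4 printed belong to the genes whose assembled loci began at or shortly before the RefSeq start and which encode secreted or surface proteins. Each runs 5′ to 3′ on the strand of the gene and ends before the farthest assembled start, with capitals marking the motif matches described next.
Saa3 chr7:46715709-46715926 (-): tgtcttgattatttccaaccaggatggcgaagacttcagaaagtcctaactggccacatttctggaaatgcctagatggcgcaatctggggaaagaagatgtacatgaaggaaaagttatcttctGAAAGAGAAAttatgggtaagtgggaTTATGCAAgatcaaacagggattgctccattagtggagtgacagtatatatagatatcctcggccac
Wfdc17 chr11:83703806-83703990 (+): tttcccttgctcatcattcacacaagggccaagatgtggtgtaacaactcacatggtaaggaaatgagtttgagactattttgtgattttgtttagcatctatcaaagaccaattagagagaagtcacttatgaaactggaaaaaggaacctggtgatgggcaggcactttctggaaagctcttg
Timp1 chrX:20869916-20870165 (+): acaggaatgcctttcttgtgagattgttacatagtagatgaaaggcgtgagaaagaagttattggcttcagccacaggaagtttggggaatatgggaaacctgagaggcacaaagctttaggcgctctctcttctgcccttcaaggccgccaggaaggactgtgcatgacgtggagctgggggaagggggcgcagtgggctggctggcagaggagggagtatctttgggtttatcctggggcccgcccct
Pdpn chr4:143299565-143299814 (-): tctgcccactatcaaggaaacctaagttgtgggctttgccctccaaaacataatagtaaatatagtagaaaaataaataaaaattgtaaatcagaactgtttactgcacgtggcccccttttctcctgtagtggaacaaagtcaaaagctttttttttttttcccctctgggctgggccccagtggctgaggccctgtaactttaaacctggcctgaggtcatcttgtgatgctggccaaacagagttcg

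The 250 bases before each RefSeq start were searched on both strands for AP-1 (TGANTCA), C/EBP (TTGCNNAA), STAT (TTCNNNGAA), PU.1 (GAGGAA), the TATA box (TATAAA), the interferon-stimulated response element (ISRE) and the kappaB motif. No motif was held by more than 1 of the 7 genes. For Urah and Prss46 the windows did not adjoin the assembled start. The windows of Urah lay inside the stretch that its farthest assembled locus covers. The window of Prss46 lay before position 110844506, while its earliest assembled start was at 110849413. Saa3 held the ISRE letters 125 to 116 bases and the C/EBP letters 99 to 92 bases before its start, which 2.98% and 9.56% of all 32851 windows hold. Urah held the STAT letters in both of its windows (7.02% of all windows). These windows overlap, and the matches are the same bases, inside the stretch that the assembled locus of Urah covers. Wfdc17 held PU.1 letters (23.25%), also inside the stretch that its own assembled locus covers. AP-1 (6.75% of windows), kappaB (3.90%) and TATA letters (12.4%) were in none of the 7. These are matches of letters and say nothing of binding.

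A lack of overlap was common in these data. Of the 11436 genes tested, 1053 (9.21%) were higher in all 9 high libraries than in all 9 low ones, and 1464 were lower in all of them. The rule used the same values, so nothing is read from the 9 of 9 members in that class. The width of the gap is built from the values that chose the 9 genes and is given as a description. On the log2(FPKM + 0.5) scale, the lowest high value lay more than 1 above the highest low value in 117 genes. The gap was 5.51 for Urah, 5.28 for Saa3, 4.79 for Wfdc17 and 4.39 for Lipg, at ranks 1 to 4 of all genes tested. Pdpn (gap 3.74) stood at rank 7, Timp1 (3.19) at rank 9, Prss46 (2.30) at rank 20, Slc15a3 (1.997) at rank 27 and Myo1e (1.59) at rank 49. The added 0.5 FPKM shrinks the gap of genes near 0, so Urah had a gap of 7.62 with 0.1 FPKM added and 4.56 with 1 FPKM added.

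**Figure D2:**
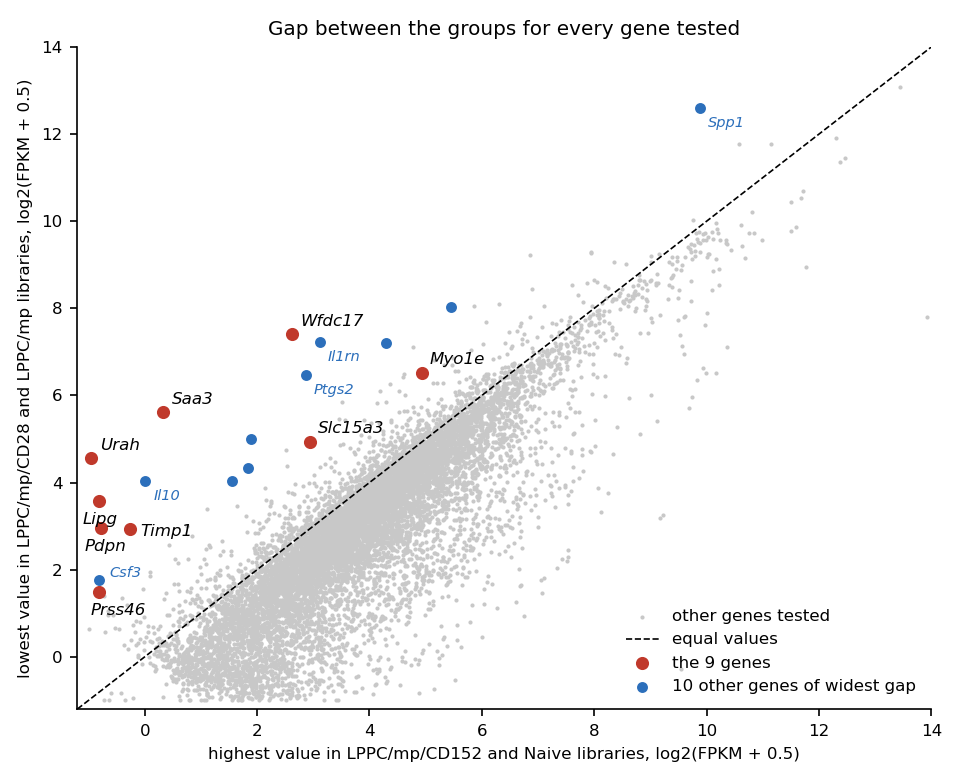
Lowest value in the LPPC/mp/CD28 and LPPC/mp libraries (vertical axis) against the highest value in the LPPC/mp/CD152 and Naive libraries (horizontal axis), both as log2(FPKM + 0.5), for the 11436 genes tested. Points above the dashed line do not overlap between the groups, and Urah, with a gap of 5.51, lies farthest above it.

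The coefficient of variation of the 9 genes over the high libraries, whose values the rule used, ran from 3.85% for Myo1e to 8.90% for Prss46, with a median of 5.67%, beside a median of 7.33% over all genes tested. Timp1 (7.92%), Slc15a3 (7.62%) and Prss46 lay above that median. LPPC/mp/CD28 6 held the highest value for 6 of the 9 members and LPPC/mp 2 the lowest for 4. After scaling by the median of ratios, LPPC/mp/CD28 6 was still highest for 6 members and LPPC/mp 2 was lowest for 5, and the median ratio to the middle library was 1.08 and 0.914.

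LPPC/mp/CD28 was compared with LPPC/mp, a difference that the rule did not contrast. The rule asked the 9 genes to be high in both groups, so nothing is read from the absence of calls among them. The antibody, the added dose and the later week cannot be told apart here. None of the 9 was called by limma at an adjusted p under 0.05, or had an unadjusted p under 0.05, where 48 of 11436 genes (0.42%) were called in either direction and 1278 had an unadjusted p under 0.05. The count over all genes was 20, 9 and 4 without LPPC/mp 1, 2 and 3, and 18, 113, 22 and 7 without LPPC/mp/CD28 1, 2, 4 and 5, with none of the 9 genes called in any of these fits. The differences on the log2(FPKM + 0.5) scale ran from -0.08 for Urah to 0.09 for Prss46, with a median of 0.04 beside -0.00309 over all genes tested. Urah averaged 24.2 ± 1.36 FPKM in LPPC/mp/CD28 (SD, n = 6) and 25.6 ± 0.991 FPKM in LPPC/mp (SD, n = 3), with a 95% interval of 0.876 to 1.02 for the fold and an adjusted p of 0.579 by limma. Saa3 averaged 53.9 ± 2.93 FPKM in LPPC/mp/CD28 and 51.5 ± 2.997 FPKM in LPPC/mp, an interval of 0.968 to 1.13 and an adjusted p of 0.701. The widest interval was that of Prss46, which averaged 2.68 ± 0.239 FPKM in LPPC/mp/CD28 and 2.49 ± 0.191 FPKM in LPPC/mp, with a fold between 0.944 and 1.20. The intervals of the 9 genes lay between 0.872 and 1.20 with 0.5 FPKM added, which shrinks the fold of the less abundant genes such as Prss46. The ranges of the 2 groups overlapped for all 9, and the two-sided exact permutation test over 84 splits gave unadjusted p from 0.167 for Urah to 0.905 for Slc15a3, where 0.0238 is the smallest it can give.

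LPPC/mp/CD152 was compared with Naive in the same way, which asks whether the low groups differ. None of the 11436 genes tested was called (0%), of which 38 had an unadjusted p under 0.05 by limma, and 1 was called with no filter on low values. The rule asked the 9 genes to be low in both groups, and 6 of them averaged under 0.5 FPKM in the low libraries, so nothing is read from the absence of calls among them. The differences ran from -0.11 for Slc15a3 to 0.08 for Prss46. The intervals were wider here, and each low group holds both kinds of library. Wfdc17 averaged 4.74 ± 0.491 FPKM in LPPC/mp/CD152 (SD, n = 6) and 4.65 ± 1.17 FPKM in Naive (SD, n = 3), with a fold between 0.792 and 1.35 on the scale with 0.5 FPKM added. Myo1e, the narrowest, averaged 26.3 ± 1.78 FPKM in LPPC/mp/CD152 and 26.4 ± 3.09 FPKM in Naive, with a fold between 0.844 and 1.19. Saa3, the widest, averaged 0.450 FPKM in LPPC/mp/CD152 and 0.425 FPKM in Naive. Its interval was 0.689 to 1.58 on the scale with 0.5 FPKM added. That added value narrows the interval of so low a gene, so no limit of detection in FPKM is read from it. For genes near 0 the added 0.5 FPKM sets the interval.

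**Figure D3:**
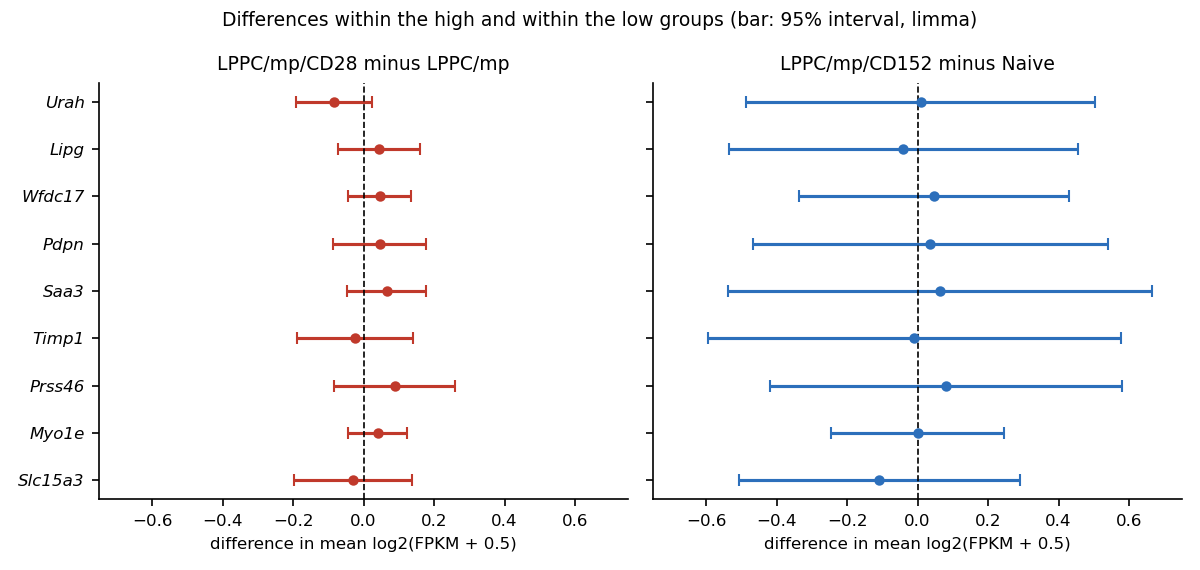
Difference in mean log2(FPKM + 0.5) for each of the 9 genes (horizontal axes), LPPC/mp/CD28 minus LPPC/mp on the left and LPPC/mp/CD152 minus Naive on the right, with the bar the 95% interval of limma. All 18 intervals include 0, and those of the low groups are wider.

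Within the 9 low libraries, the split by Y-linked transcripts was not used by the rule. Of all genes tested, 8282 (72.4%) did not overlap between the 4 libraries without Y-linked transcripts and the 5 others, in either direction. Among the 3 members above 0.5 FPKM in every low library, Slc15a3 and Myo1e did not overlap and Wfdc17 did. Slc15a3 measured 5.51 to 7.18 FPKM in the libraries without these transcripts and 3.97 to 5.14 FPKM in the others. Myo1e measured 23.7 to 24.6 FPKM in the libraries without them and 27.1 to 29.9 FPKM in the others. Values near 0 carry little weight here: Pdpn was at most 0.00205 FPKM in the libraries without them and at 0.0501 to 0.0833 FPKM in the others, and Prss46 was listed at 0 in the libraries without them and at 0.0298 to 0.0698 FPKM in the others. Wfdc17 measured 4.21 to 5.63 FPKM in the libraries without these transcripts and 3.36 to 5.48 FPKM in the others. The macrophage and monocyte markers did not overlap between the same libraries, at 678 to 809 FPKM in those without Y-linked transcripts and 3309 to 3619 FPKM in the others.

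The markers of other cell types were summed in the same way. Neutrophil markers, 14 genes, summed to 2185 to 2972 FPKM in LPPC/mp/CD28 and 1556 to 1835 FPKM in LPPC/mp libraries, against 151 to 567 FPKM in LPPC/mp/CD152 and 27.7 to 585 FPKM in Naive libraries. Erythroid markers, 9 genes, summed to 1368 to 2644 FPKM in LPPC/mp/CD28 and 4751 to 7082 FPKM in LPPC/mp libraries, against 554 to 74897 FPKM in LPPC/mp/CD152 and 115 to 84051 FPKM in Naive libraries. B cell markers, 10 genes, summed to 210 to 345 FPKM in the high libraries and 29.98 to 1896 FPKM in the low ones, and dendritic cell markers, 9 genes, to 35.3 to 49.7 FPKM in the high libraries and 4.17 to 135 FPKM in the low ones. Of these sums the neutrophil sum alone put every high library above every low one, and its part in the levels of the 9 genes was not tested.

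**Figure D4:**
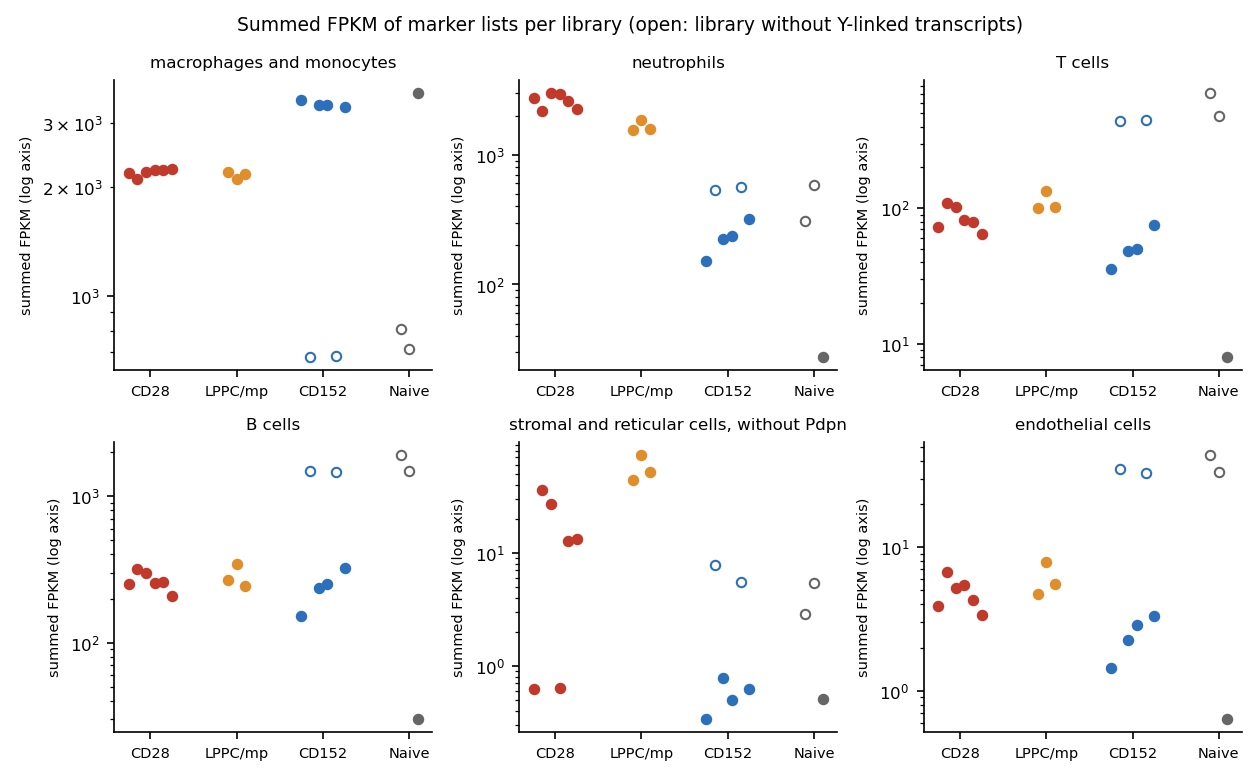
Summed FPKM (vertical axes, log scale) of 6 marker lists in each library, by group, with open points the 4 libraries without Y-linked transcripts. The low libraries fall into 2 kinds in the macrophage, T cell, B cell and endothelial panels, and 2 LPPC/mp/CD28 libraries lie at 0.621 and 0.639 FPKM in the stromal panel.

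The nearest protein-coding gene on either side, which the rule did not use, gave 18 neighbours. Of these 11 were among the genes tested, and 3 were higher in every high library than in every low one, beside 9.21% of all genes tested, and 1 was lower, beside 1464 of all 11436. Prss50, a serine protease of the same cluster 1444 bases after Prss46, measured 5.39 to 6.10 FPKM in the high and 0.0156 to 0.845 FPKM in the low libraries. Ccl4, a chemokine 39307 bases before Wfdc17, measured 146 to 171 FPKM in the high and 4.31 to 19.0 FPKM in the low libraries. Cfp, which encodes properdin of the complement system, lies 50718 bases after Timp1 and measured 60.5 to 68.0 FPKM in the high and 33.6 to 57.5 FPKM in the low libraries. Acaa2, a mitochondrial thiolase 133114 bases from Lipg, was the lower one, with 11.2 to 13.7 FPKM in the high and 15.02 to 22.1 FPKM in the low libraries. Wfdc18, 2746 bases after Wfdc17 and of the same family, stayed at 0.751 FPKM or below in every library, and Saa4, next to Saa3, at 0.00150 FPKM or below.

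The families and pathways of the 9 genes were tested with all 18 libraries and 4 groups in the fit, leaving out the members. Of 166 listed genes, 81 were tested. The lists were made around members chosen by the contrast of high and low libraries, with earlier results of these data known. Nothing is therefore read from their counts or medians beside those of all genes. In LPPC/mp/CD28 against Naive, 19 of the 81 were higher and 9 lower, beside 13.6% of all genes higher and 21.9% lower. In LPPC/mp against Naive, 14 were higher and 7 lower, beside 9.18% and 15.9% of all genes, and 2 family genes were called, of 52 over all genes, when these 2 groups were fitted alone. In LPPC/mp/CD28 against LPPC/mp/CD152, 19 were higher and 6 lower, beside 11.3% and 19.4%. The median difference over the 81 genes was 0.13, 0.20 and 0.07 in these 3 comparisons, beside -0.13, -0.11 and -0.12 over all genes. The first 2 comparisons share the Naive libraries and the comparisons of LPPC/mp/CD28 share its libraries. Without Naive 3 the counts in the first 2 were 52 and 47 genes of either direction, against 28 and 21 with all libraries, and without LPPC/mp 1 or LPPC/mp 2 the second was 13. Without the 4 low libraries that lack Y-linked transcripts 54, 56 and 57 of the 81 genes were called in the 3 comparisons, and without the other 5 low libraries 65, 64 and 63.

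The metalloproteinases and their inhibitors, around Timp1, held the most calls and also the most genes tested. Of 31 listed genes 15 were tested, and 7 rose and none fell in LPPC/mp/CD28 against Naive, with a median difference of 1.08. Over all genes 13.6% were higher and 21.9% lower, shares that also stand beside the counts of the other families in this comparison. The 7 were Mmp8, which is also in the neutrophil marker list, Mmp14, Mmp19, Adam8, Adam9, Adam15 and Cd63, a surface partner of Timp1. Adam8, a sheddase of myeloid cells, averaged 222 ± 10.5 FPKM in LPPC/mp/CD28, 217 ± 9.57 FPKM in LPPC/mp, 43.2 ± 28.6 FPKM in LPPC/mp/CD152 and 27.1 ± 34.5 FPKM in Naive, a difference of 3.84 ± 0.81 (SE) in LPPC/mp/CD28 against Naive with an adjusted p of 0.00194 by limma. Mmp19 averaged 4.15 ± 0.284 FPKM in LPPC/mp/CD28 and 1.26 ± 0.859 FPKM in Naive (adjusted p = 0.000203). Timp2, the other inhibitor tested, averaged 1.82 FPKM in LPPC/mp/CD28 and 6.13 FPKM in Naive and was not called.

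Among whey acidic protein domain genes, 2 of 19 listed were tested. Wfdc21 rose to 13.6 ± 1.54 FPKM in LPPC/mp/CD28 and 11.6 ± 0.995 FPKM in LPPC/mp, against 1.74 ± 0.674 FPKM in LPPC/mp/CD152 and 0.643 ± 0.856 FPKM in Naive (adjusted p = 6.09e-07 in LPPC/mp/CD28 against Naive). Slpi, an inhibitor of neutrophil elastase, averaged 18.2 FPKM in LPPC/mp/CD28 and 20.5 FPKM in Naive and was not called.  The 16 other listed genes in the tables stayed at 0.751 FPKM or below.

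Of the other serum amyloid A genes in the tables, Saa1, Saa2 and Saa4 stayed at 0.114 FPKM or below in every library. Of 8 receptors and partners tested, 2 rose and 2 fell in LPPC/mp/CD28 against Naive. Cd36, a scavenger receptor that binds serum amyloid A, averaged 125 ± 4.68 FPKM in LPPC/mp/CD28 and 121 ± 4.25 FPKM in LPPC/mp, against 34.3 ± 5.90 FPKM in LPPC/mp/CD152 and 33.8 ± 10.2 FPKM in Naive (difference 1.91 ± 0.15, adjusted p = 2.80e-07). Fpr2, a formyl peptide receptor, rose to 8.20 FPKM in LPPC/mp/CD28, against 2.59 FPKM in Naive. P2rx7 and Ager fell, P2rx7 to 2.89 ± 0.542 FPKM in LPPC/mp/CD28 against 4.49 ± 1.08 FPKM in Naive (adjusted p = 0.0191).

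The 2 tested genes of the Prss family besides Prss46 both rose. Prss50 averaged 5.78 ± 0.292 FPKM in LPPC/mp/CD28 and 5.70 ± 0.365 FPKM in LPPC/mp, against 0.251 ± 0.317 FPKM in LPPC/mp/CD152 and 0.428 ± 0.369 FPKM in Naive (adjusted p = 2.07e-06). Prss34, a protease of basophils and mast cells, averaged 7.17 ± 0.375 FPKM in LPPC/mp/CD28 and 4.56 ± 0.304 FPKM in LPPC/mp, against 0.504 ± 0.363 FPKM in LPPC/mp/CD152 and 0.389 ± 0.460 FPKM in Naive (adjusted p = 4.28e-07). The remaining 24 genes stayed at 1.71 FPKM or below in every library.

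Of 12 lipases and lipoprotein partners tested around Lipg, none rose, 4 fell and 8 were not called in LPPC/mp/CD28 against Naive. Their median difference was -0.42 there and -0.05 in LPPC/mp against Naive, beside -0.13 and -0.11 over all genes. Abcg1, a cholesterol exporter, fell to 9.24 ± 0.300 FPKM in LPPC/mp/CD28 and 10.0 ± 0.249 FPKM in LPPC/mp, against 17.0 ± 1.09 FPKM in LPPC/mp/CD152 and 19.3 ± 2.52 FPKM in Naive (difference -1.01 ± 0.08, adjusted p = 1.58e-07). Angptl4, an inhibitor of lipoprotein lipase, fell to 0.234 ± 0.0750 FPKM in LPPC/mp/CD28, against 0.992 ± 0.0483 FPKM in Naive (adjusted p = 3.78e-05). Lipe and Lmf2 were the other 2. Lpl, the lipase most abundant in these libraries, ranged from 138 to 281 FPKM in the high and 3.67 to 354 FPKM in the low libraries and was not called.

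Of 12 podoplanin partners tested, 3 rose and none fell. Cd44, a surface partner of podoplanin, averaged 82.2 ± 3.62 FPKM in LPPC/mp/CD28 and 80.0 ± 1.25 FPKM in LPPC/mp, against 54.9 ± 1.20 FPKM in LPPC/mp/CD152 and 56.6 ± 0.619 FPKM in Naive (difference 0.53 ± 0.05, adjusted p = 3.75e-06). Lgals8, a galectin that binds podoplanin, averaged 31.8 ± 1.45 FPKM in LPPC/mp/CD28 and 21.4 ± 1.68 FPKM in Naive (adjusted p = 1.37e-05). Cd9, a tetraspanin, also rose. Clec1b, the platelet receptor, averaged 0.436 FPKM in LPPC/mp/CD28, 2.07 FPKM in LPPC/mp and 1.64 FPKM in Naive and was not called.

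In purine degradation 1 of 9 tested was called in LPPC/mp/CD28 against Naive: Pnp, which splits purine nucleosides, averaged 14.6 ± 0.600 FPKM in LPPC/mp/CD28 and 12.3 ± 0.869 FPKM in Naive (adjusted p = 0.00699). Xdh, which makes urate, averaged 7.68 ± 0.310 FPKM in LPPC/mp/CD28 and 5.23 ± 2.46 FPKM in Naive (adjusted p = 0.0994). Uox, which makes the substrate of Urah, stayed at 0.0789 FPKM or below, and Urad, which acts after Urah, was listed at 0 in all 18 libraries. Of 12 unconventional myosins 2 rose and 3 fell, with Myo1d at 11.4 ± 0.404 FPKM in LPPC/mp/CD28 and 4.85 ± 4.48 FPKM in Naive (adjusted p = 0.0196) and Myo1c at 36.7 ± 0.165 FPKM in LPPC/mp/CD28 and 50.5 ± 7.44 FPKM in Naive (adjusted p = 0.00349). Of 10 peptide transporters and genes of the NOD pathway 1 rose: Ripk2, the kinase of NOD signalling, averaged 13.7 ± 0.930 FPKM in LPPC/mp/CD28 and 8.81 ± 0.573 FPKM in Naive (adjusted p = 0.000229). Slc15a4, the closest relative of Slc15a3 in the list, averaged 16.7 FPKM in LPPC/mp/CD28 and 15.9 FPKM in Naive and was not called, and Slc38a9, a lysosomal amino acid sensor, averaged 2.46 FPKM in LPPC/mp/CD28 and 3.38 FPKM in Naive (adjusted p = 0.0622).

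**Figure D5:**
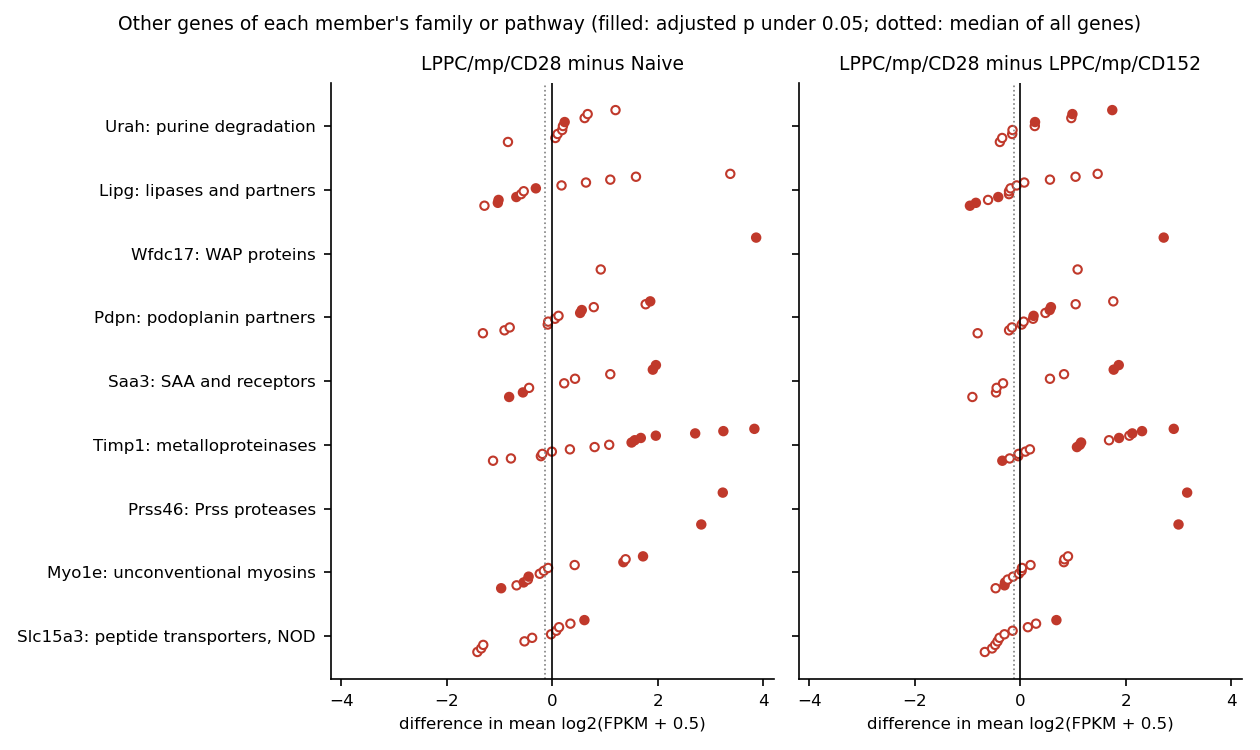
Difference in mean log2(FPKM + 0.5) of the 81 other genes of each member's family or pathway (horizontal axes), LPPC/mp/CD28 minus Naive on the left and LPPC/mp/CD28 minus LPPC/mp/CD152 on the right. Filled points passed an adjusted p under 0.05 by limma and the dotted line is the median of all genes tested, with 7 of the 15 tested metalloproteinase genes filled to the right of 0 on the left.

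The genes whose profile was most like that of the members were found by the root mean square difference from the members' mean profile over the 18 libraries, after each gene was set to 0 at its mean of the low and 1 at its mean of the high libraries. It was 0.016 for Urah and 0.055 for Slc15a3, the closest and the farthest member. The 10 closest other genes had values from 0.033 to 0.065, and 6 of them ran the same way as the members. Il10, an anti-inflammatory cytokine, was the closest, with 15.9 to 18.4 FPKM in the high and 0.170 to 0.501 FPKM in the low libraries. Csf3 (granulocyte colony-stimulating factor) measured 2.92 to 4.05 FPKM in the high and 0 to 0.0669 FPKM in the low libraries. Sqstm1, an autophagy receptor, measured 146 to 160 FPKM in the high and 76.5 to 84.4 FPKM in the low libraries, so a flat profile within each level, not the size of the step, placed it here. Ptprn, Il33 and Dgkh were the other 3. Uri1, Mpeg1, Ddx3x and Srsf3 ran the other way, for example Ddx3x with 42.4 to 50.5 FPKM in the high and 90.6 to 104 FPKM in the low libraries.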

How the data were processed

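RNA of splenocytes was sequenced on an Illumina instrument, and 18 tables, 1 per library, were deposited. The authors gave FPKM for reference genes and for loci assembled from the same reads, with read coverage (the mean depth per base) beside them; a further deposited score column, headed TPM, was not used because it was scaled over the assembled loci alone. The submitters' processing notes name the mm10 build and GATK 4.2, while for the aligner, the counter and the strand setting nothing is given in the sources used here. FPKM hold no counts, so no count model was run.

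Values were taken as log2(FPKM + 0.5) for the protein-coding genes that averaged 0.5 FPKM or more across all 18 libraries. limma 3.58.1 (lmFit, eBayes with trend) in R 4.3.3 was fitted to all 11436 of them, on the 2 groups compared for the 9 genes and on all 4 groups for their families, with Benjamini-Hochberg adjustment over all genes and a threshold of 0.05. Permutation tests used scipy 1.17.1, tables pandas 2.3.3 with numpy 2.4.6, and plots matplotlib 3.10.9, all in Python 3.11.15. The exact permutation tests were two-sided. The scripts were tested on simulated data.

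The 9 genes and all gene lists were chosen with earlier results of these data known. Named besides the 9 genes were the 2 genes of each family list with the smallest adjusted p in LPPC/mp/CD28 against Naive, the 10 genes with the most similar profile and the 10 with the widest gap. Other family genes named were chosen after their values were seen. Alternatives were another pseudocount, filter, scaling, fit or replicate block, and leaving out libraries.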

Additional observations from a re-analysis of the deposited data

Results flagged for a closer look

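Among the 18 sets of 6 libraries examined (9 genes in LPPC/mp/CD28 and in LPPC/mp/CD152), 2 held a library far from the other 5, where chance alone gives about 1 in 20. Urah measured 26.7 FPKM in LPPC/mp/CD28 6, with the other 5 libraries of that group at 23.0 to 24.4 FPKM. LPPC/mp/CD28 6 was also the highest high library for 6 of the 9 genes. Urah measured 0.0175 FPKM in LPPC/mp/CD152 6 and was listed at 0 in the other 5 libraries of that group. With 5 values at 0, any value above 0 would be flagged. The rate of 1 in 20 does not apply there, and nothing is read from that flag.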

How the results depend on the processing

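None of the 9 genes was called in LPPC/mp/CD28 against LPPC/mp or in LPPC/mp/CD152 against Naive under any alternative run, and leaving out each library in turn gave 0 calls among them throughout. The rule asked these genes to be high in both groups of the first pair and low in both of the second. Nothing is therefore read from this absence of calls. Over all genes, the 48 calls of LPPC/mp/CD28 against LPPC/mp became 7 without a filter and 61 after scaling by the median of ratios, and 0 with a replicate block or with all 4 groups fitted. Some differences that were not called changed sign. With the replicate block, LPPC/mp/CD28 minus LPPC/mp was -0.0204 for Pdpn and -0.000518 for Myo1e, and LPPC/mp/CD152 minus Naive was -0.0198 for Wfdc17 and 0.12 for Timp1. Leaving out 1 library at a time, LPPC/mp/CD28 minus LPPC/mp ran from -0.11 to 0.0618 for Timp1, -0.00179 to 0.0674 for Lipg and -0.0627 to 0.0235 for Slc15a3. LPPC/mp/CD152 minus Naive ran from -0.15 to 0.19 for Wfdc17, -0.00161 to 0.11 for Pdpn, -0.0777 to 0.31 for Saa3, -0.11 to 0.15 for Timp1, -0.0479 to 0.0938 for Myo1e and -0.32 to 0.0705 for Slc15a3.

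The family genes called, 28 in LPPC/mp/CD28 against Naive, 21 in LPPC/mp against Naive and 25 in LPPC/mp/CD28 against LPPC/mp/CD152, became 54, 56 and 57 without the 4 libraries that lack Y-linked transcripts, and 65, 64 and 63 without Naive 3 and LPPC/mp/CD152 1, 3, 4 and 6. LPPC/mp against Naive gave 2 calls when fitted alone. Leaving out 1 library gave 20 to 52, 13 to 47 and 22 to 33 calls in these 3 comparisons. The genes that did not overlap, 1053 of those tested, became 2223 without the 4 libraries that lack Y-linked transcripts, 3688 without the other 5 low libraries, and 1059 to 1168 without 1 library. Leaving out libraries can only keep or raise this last count. The cause of the changes in the family counts was not tested.

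Libraries share replicate numbers across groups. The correlation of same-numbered libraries ran from -0.113 to 0.244 between LPPC/mp/CD28 and LPPC/mp and from -0.642 to 0.906 between LPPC/mp/CD152 and Naive. It ran from -0.281 to 0.377 between LPPC/mp/CD28 and LPPC/mp/CD152. Against Naive it ran from -0.297 to 0.325 for LPPC/mp/CD28 and from -0.158 to 0.393 for LPPC/mp. The sign was mixed in every pair of groups, and the numbers were not taken as pairs. With the replicate block, 22, 20 and 26 family genes were called. The depth is known in aligned bases, 5.21 to 7.92 gigabases per library, and not in fragments. No lower limit was computed for genes listed at 0.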

Other observations

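The 10 other genes with the widest gap between the high and the low libraries were described without a test, since the same contrast ranked them. Il1rn, the antagonist of interleukin 1 receptor, averaged 169 FPKM in LPPC/mp/CD28 and 159 FPKM in LPPC/mp, against 5.53 FPKM in LPPC/mp/CD152 and 4.31 FPKM in Naive, a gap of 4.11 on the log2(FPKM + 0.5) scale. Il10 had a gap of 4.03. Ptgs2, the inducible cyclooxygenase, averaged 95.8 FPKM in LPPC/mp/CD28 and 93.2 FPKM in LPPC/mp, against 4.81 FPKM in LPPC/mp/CD152 and 3.64 FPKM in Naive (gap 3.61). Irg1, which makes itaconate in activated macrophages, had a gap of 3.11, and the chemokine Ccl4 one of 2.90.

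Spp1, which encodes osteopontin, was the most abundant of the 10, with 6178 to 6966 FPKM in the high libraries and 0.210 to 943 FPKM in the low ones (gap 2.71). Nos2, the inducible nitric oxide synthase, measured 19.6 to 21.9 FPKM in the high libraries and 0.0607 to 3.08 FPKM in the low ones (gap 2.49). Csf3 (gap 2.59), the metallothionein gene Mt2 (2.59) and Prtn3, a protease of neutrophil granules (2.48), completed the 10. Prtn3 averaged 21.8 FPKM in LPPC/mp/CD28 and 16.7 FPKM in LPPC/mp, against 1.07 FPKM in LPPC/mp/CD152 and 0.692 FPKM in Naive.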
